A study of Mus musculus with 37 samples.

Results

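The genes described here encode proteins of the centromere and the kinetochore, the structure that ties each chromosome to the spindle. Members were found by gene symbol, and all 33 were found among the 54752 genes of the count table once the ERCC spike-in sequences were set aside. By role, 15 are inner kinetochore genes, 10 are outer kinetochore genes, 3 belong to the outermost corona, 3 deposit the centromeric histone CENP-A, and 2 carry the Cenp name with other roles (Cenpj and Cenpv). They lie on 15 chromosomes, and the closest pair of neighbours, Knl1 and Oip5 on chromosome 2, is 504011 bases apart.

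The inner kinetochore sits on chromatin that holds CENP-A, a histone H3 variant, and is built around CENP-C and a large assembly of further CENP proteins. CENP-C and CENP-T each reach outwards and recruit the outer kinetochore, in which the MIS12 complex, KNL1 and the NDC80 complex bind microtubules. In a mouse oocyte this machinery has to work with stored messenger RNA, since transcription is silent from the end of growth until after fertilisation, and CENP-A put in place earlier is long-lived.

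RNA of 37 single C57BL/6 mouse oocytes was measured by Smart-seq2 to compare stages of meiotic maturation. Batch A held 6 oocytes at the germinal vesicle (GV) stage and 6 at metaphase II (MII), and batch B held 10 at GV and 15 at metaphase I (MI). GV oocytes were taken from the ovaries of hormone-primed females. MI oocytes were GV oocytes that matured in culture in M16 medium, while MII oocytes matured in the animal and were flushed from the ampulla after hCG. MI and MII thus differ in how they matured as well as in batch, and these cannot be told apart. All oocytes were picked by their morphology, and the zona pellucida and the polar body were removed. The labels name no animal, so p-values here measure the spread between oocytes, some of which may share a mother.

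Expected counts assigned to genes ranged from 7509812 to 12648571 per GV oocyte and from 9930422 to 13988336 per MII oocyte of batch A. In batch B they ranged from 7184193 to 17724506 at GV and from 2709247 to 19390137 at MI, with MI oocyte 15 the lowest. The number of genes detected was 29816 in MII oocyte 1 of batch A and from 19574 to 22598 in its group's remaining oocytes. In MI oocytes 4, 8 and 9 the median over well-counted genes of the HTSeq to RSEM count ratio was 1.07 to 1.13, while it was 1.98 to 2.20 in the other 34 oocytes. Values of a single gene are given below as CPM (each oocyte's counts scaled to a common total with TMM factors), and values of different genes are compared as TPM, which divides by transcript length. Batches were kept apart, and no level was tested between them.

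All 12 oocyte markers, among them Gdf9, Zp1 and Bmp15, were detected in the median oocyte of every group, with a summed median of 13836 CPM at GV and 9624 CPM at MII in batch A, and of 5754 CPM at GV and 5067 CPM at MI in batch B. From GV to MII, 5 of these 12 were called lower: Zp1 (log2 fold change -1.39), Zp2 (-2.14), Zp3 (-2.21), Figla (-1.16) and Ooep (-1.04). Zp1, Zp2 and Zp3 were also called for the difference between the change to MII and the change to MI (-1.42, -1.74 and -1.86). The 18 granulosa and cumulus markers summed to medians of 53.5, 40.1, 39.6 and 37.4 CPM in the GV and MII oocytes of batch A and the GV and MI oocytes of batch B. Cyp19a1 or Nr5a2 was the most abundant of them in most oocytes, while Amh, Ptx3 and Tnfaip6 had medians of 0 in every group. Between GV and MI, Gja1 (log2 fold change -3.42) and Ccnd2 (-3.69) of this list were called lower (adjusted p = 0.0174 for both), and the median of Ccnd2 went from 2.34 CPM at GV to 0 CPM at MII in batch A, where it was too low to test. The 8 blood and immune markers summed to medians of 2.09, 3.16, 3.56 and 2.46 CPM in the same order, with Hbb-bs, Cd68 or Csf1r as the most abundant in most oocytes and Lyz2 at a median of 0. MII oocyte 1 of batch A had 17.8 CPM for this list, led by Hba-a1, where the next MII oocyte had 3.29 CPM. Hbb-bs was called for the difference between the change to MII and the change to MI (5.40, adjusted p = 0.00892), on MII values from 0 to 4.66 CPM with a median of 0.0531 CPM and 3 of 6 oocytes detected. The 9 stroma and endothelium markers summed to medians of 126, 58.6, 66.8 and 59.9 CPM. Pecam1 led this list in every oocyte, and Cdh5 and Lum had medians of 0. Pecam1 was called lower from GV to MII (log2 fold change -1.13, adjusted p = 0.00148). The part of these markers in the kinetochore results was not tested.

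Per length, the corona gene Cenpf, whose large product gathers motors at the kinetochore, had the highest median of the 33 genes in the GV oocytes of batch A (190 TPM) and in the GV (439 TPM) and MI (430 TPM) oocytes of batch B. In the MII oocytes of batch A, Cenpn, an inner protein that reads the CENP-A nucleosome, was first with a median of 210 TPM and Cenpf was second with 207 TPM. Neighbours in these orders mostly overlapped. Of the 32 neighbouring pairs per group, the oocytes of 0 were separate in both GV groups, those of 2 in MII oocytes (Nuf2 above Cenph, Nsl1 above Cenpb) and those of 1 in MI oocytes (Nsl1 above Cenpb). Cenpb, which binds a DNA motif of centromeric repeats, was last in every group, with a median of 0.367 TPM at GV in batch A and of 0 at MII. Within a group, the spread between oocytes of a gene's CPM (SD over mean) for the other 32 genes had a median of 18.8% at GV and 25.6% at MII in batch A, and of 27.5% at GV and 32.98% at MI in batch B. On this CPM scale Nuf2 varied least in batch A, by 5.43% at GV and 5.40% at MII, while Oip5 varied most, by 45.1% and 42.9%.

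The comparison of GV with MII oocytes asks which transcripts change in proportion over the whole of maturation. In batch A, 12929 genes had enough counts to be tested with edgeR's quasi-likelihood test, 32 of the 33 members among them, since Cenpb was too low. Calls needed both an adjusted p (Benjamini-Hochberg) under 0.05 and a change of more than 2-fold. Of the members, 0 were called higher and 3 lower (9.38% of those tested), beside 8.47% of all genes tested called in either direction, 2.15% higher and 6.32% lower. With both thresholds the share called among members was thus near that of the whole table. DESeq2 also called 0 members higher and 3 lower, and 21 members had an unadjusted p under 0.05 in edgeR, where 34.3% of all genes did. With the adjusted p alone, 4 members were higher and 8 were lower, beside 9.06% and 11.5% of all genes. All 4 higher members were on the negative side with spike-in scaling, at adjusted p from 0.139 to 0.638. Together the higher and lower made 37.5% of members tested, beside 20.6% of all genes in either direction, a difference that was not tested. The shares were not matched for abundance. By TPM at GV, tested members lay from percentile 19.7 (Nsl1) to 95.6 (Cenpf) of the genes tested. The remaining 20 tested members missed the adjusted threshold, which does not show that they were unchanged. Without overlap between the oocytes of both stages, 3 members lay higher at MII and 4 lower under TMM scaling, beside 4.08% and 5.71% of all genes, and spike-in scaling put the fold changes of those 3 below 0.

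Positive directions in batch A rest on the scaling. The 14 members below 0 with TMM were below 0 with spike-ins too. Spike-ins lowered the fold changes of all members, so this sign could only be kept and tests nothing. ERCC spike-ins, which hold 0.59% to 1.47% of an oocyte's counts in batch A, moved the median log2 fold change of all genes tested from 0.01 to -0.72 when they replaced TMM, and 131 genes were then called higher and 3788 lower, in place of 278 and 817. All 32 members then had a negative log2 fold change, and 13 were called lower. For the others a negative sign does not by itself show a decrease, with adjusted p up to 0.826. Fold changes below are relative to the bulk of genes (TMM) unless spike-ins are named. Spike-ins had at most 32 counts per oocyte in batch B, so no such check exists there.

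All 3 members called with TMM are inner kinetochore genes, 21.4% of the 14 inner genes tested beside 8.47% of all genes, a difference that was not tested. The 13 called with spike-ins also held outer genes (Spc24, Spc25, Pmf1 and Zwint), the corona gene Zw10 and the deposition gene Oip5. CENP-T binds centromeric DNA as part of a histone-fold complex and recruits the NDC80 complex directly. Cenpt (chromosome 8, 105844673 to 105853278 on GRCm38) had from 11.7 to 24.0 CPM in the GV oocytes of batch A (median 17.7) and from 1.82 to 5.42 CPM in the MII oocytes (median 3.28). All 6 MII oocytes were below all 6 GV oocytes. Its log2 fold change was -2.48 (standard error 0.275, adjusted p = 2.02e-05), a 5.59-fold decrease. It was a low-count gene, with 95 to 251 counts per oocyte at GV and 21 to 51 at MII. With spike-in scaling the log2 fold change was -3.20, or -2.48 relative to the median of all genes.

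CENP-Q, a subunit of the complex that also holds CENP-O, CENP-P and CENP-U, binds microtubules and helps to bring kinesins to the kinetochore. Cenpq (chromosome 17, 40923051 to 40935047) had from 74.5 to 115 CPM at GV (median 99.3) and from 27.0 to 51.9 CPM at MII (median 42.1). These oocytes did not overlap either, and all 6 MII values were the lower. The log2 fold change was -1.26 (standard error 0.176, adjusted p = 1.68e-04), a 2.39-fold decrease.

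CENP-K stands with CENP-H and CENP-I in a complex needed to keep further inner proteins in place. Cenpk (chromosome 13, 104228611 to 104252392) had from 15.9 to 34.8 CPM at GV (median 26.4) and from 8.18 to 18.6 CPM at MII (median 12.6). The highest MII oocyte lay above the lowest GV oocyte, so the stages overlapped. The log2 fold change was -1.02 (standard error 0.235, adjusted p = 0.00657), a 2.03-fold decrease that stood close to the fold threshold. It missed a fold of 2 on leaving out GV oocyte 2 (-0.92), GV oocyte 4 (-0.995), GV oocyte 5 (-0.95), MII oocyte 1 (-0.92), MII oocyte 4 (-0.98) or MII oocyte 5 (-0.95). It also missed it on HTSeq counts (-0.97, or -0.86 without MII oocyte 1) and in the model of all 37 oocytes (-0.96). The adjusted p stayed between 0.00350 and 0.0191 over all 12 fits that left out 1 oocyte, and between 7.31e-05 and 0.0462 over all 20 alternatives.

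**Figure D1:**
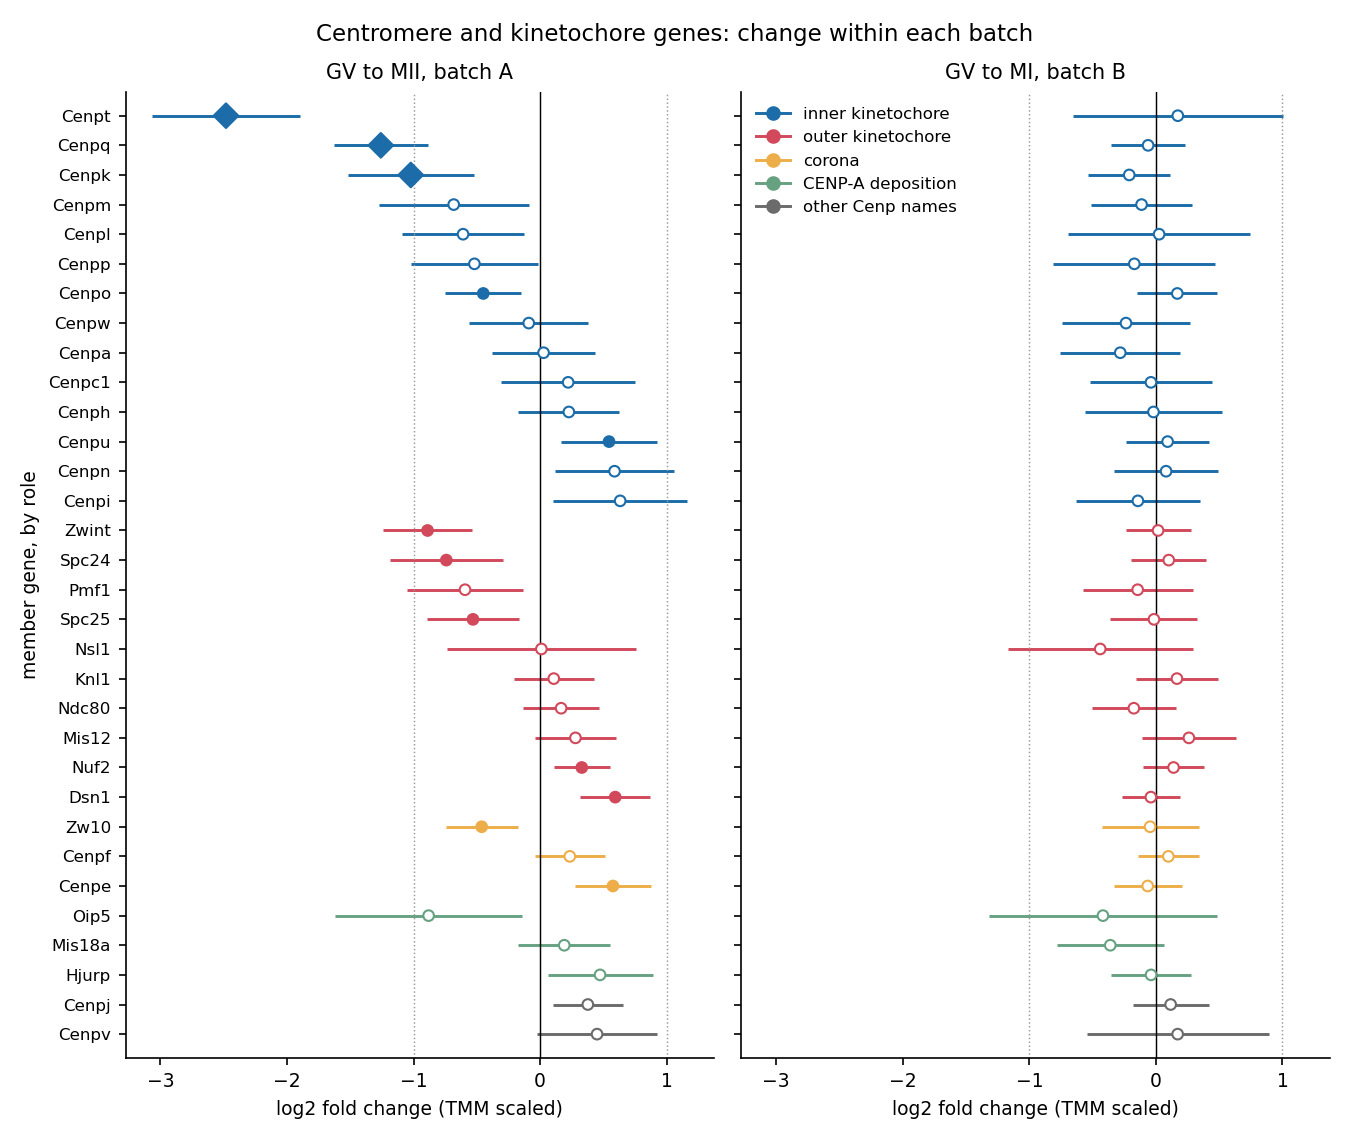
Log2 fold change of the 32 tested members with its 95% interval, GV to MII in batch A (left) and GV to MI in batch B (right), TMM scaled, in the order of roles; diamonds are called, filled circles pass the adjusted p alone, and dotted lines mark a fold of 2. Cenpt (-2.48), Cenpq (-1.26) and Cenpk (-1.02) are the called members, and spike-in scaling gives every member on the left a negative value.

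The other 11 inner genes tested were not called in either direction by edgeR on RSEM counts with TMM. With spike-ins Cenpl (-1.34), Cenpm (-1.37), Cenpo (-1.18) and Cenpp (-1.24) of these were called lower. CENP-A, the histone itself, had from 45.9 to 73.6 CPM of Cenpa at GV (median 53.7) and from 39.0 to 76.2 CPM at MII (median 64.1), and the stages overlapped throughout. The log2 fold change was 0.03 (standard error 0.192, adjusted p = 0.939), with a 95% interval of -0.38 to 0.43, so near 0 that its sign changed in 7 alternatives, -0.73 with spike-ins among them. Cenpc1, for the scaffold that links CENP-A to the outer kinetochore, had from 7.89 to 18.1 CPM at GV (median 16.2) and from 11.4 to 22.5 CPM at MII (median 17.5), again with overlap. Its log2 fold change was 0.22 (adjusted p = 0.566) and became -0.56 with spike-ins. Cenpo, a partner of CENP-Q, passed the adjusted p with a fold under 2 (log2 fold change -0.45, adjusted p = 0.0333). Cenpu of the same complex passed it on the positive side (0.54, adjusted p = 0.0405) and stood at -0.21 with spike-ins (adjusted p = 0.487). Both depended on single oocytes. Cenpo lost the adjusted threshold on leaving out any of GV oocytes 3, 4, 5 and 6 or MII oocytes 1, 2, 4 and 5 (adjusted p from 0.0215 to 0.0791 over 12 fits). Cenpu lost it on leaving out any of GV oocytes 1, 2, 3 and 6 or MII oocytes 2, 3 and 6 (0.0304 to 0.0928). CENP-K's partners missed the threshold, with Cenpi at 0.63 (adjusted p = 0.0830) and -0.09 with spike-ins, and Cenph at 0.23 (adjusted p = 0.425) and -0.54 with spike-ins. On HTSeq counts Cenpi was called higher (1.07).

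In the outer kinetochore 0 of 10 genes were called without spike-ins by edgeR or by DESeq2, beside 8.47% of all genes by edgeR. Of the 10, 6 had an unadjusted p under 0.05, beside 34.3%. With 8.47% of all genes called, a count of 0 in a list of this size says nothing particular to it. With spike-in scaling Zwint, Spc24, Spc25 and Pmf1 were called lower, where 3919 of 12929 genes tested were called. KNL1 is the scaffold on which checkpoint proteins assemble, and ZWINT binds it. Zwint had from 38.4 to 64.9 CPM at GV (median 54.4) and from 23.8 to 36.3 CPM at MII (median 27.2). All MII oocytes lay below all GV oocytes, and the decrease was 1.85-fold (log2 fold change -0.89 with standard error 0.166, adjusted p = 0.00176), just short of a call with TMM. With spike-ins Zwint stood at -1.625 and was called. Knl1 had from 23.4 to 36.6 CPM at GV (median 29.2) and from 28.6 to 37.4 CPM at MII (median 31.3), with overlapping stages and a log2 fold change of 0.11 (adjusted p = 0.649) that spike-ins turned to -0.66.

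The NDC80 complex, the main microtubule binder, has 4 subunits, whose genes were not tested against each other and were all below 0 with spike-ins. Ndc80 had from 43.6 to 58.4 CPM at GV (median 52.6) and from 47.7 to 72.0 CPM at MII (median 53.3). Nuf2, its dimer partner, had from 125 to 146 CPM at GV (median 135) and from 159 to 185 CPM at MII (median 168). Ndc80 overlapped between the stages (log2 fold change 0.17, adjusted p = 0.441, or -0.56 with spike-ins). Nuf2 was higher in all 6 MII oocytes with TMM, by a fitted log2 fold change of 0.33 (adjusted p = 0.0356, standard error 0.105, 95% interval 0.11 to 0.55). Spike-ins put it at -0.41 (adjusted p = 0.139), which does not show a decrease. Spc24 and Spc25 form the inner end of the complex, which docks on MIS12 and on CENP-T. Spc24 had from 20.9 to 40.6 CPM at GV (median 26.7) and from 11.8 to 22.1 CPM at MII (median 18.9). Spc25 had from 48.1 to 65.8 CPM at GV (median 54.7) and from 24.9 to 54.6 CPM at MII (median 39.4). Both overlapped between the stages and passed the adjusted p below 0 with a fold under 2, Spc24 at -0.74 (adjusted p = 0.0213) and Spc25 at -0.53 (adjusted p = 0.0382). With spike-ins they stood at -1.44 and -1.28, and both were called. Spc24 lost the adjusted threshold on leaving out GV oocyte 4 (adjusted p = 0.0528) or MII oocyte 4 (0.0504), within a range of 0.0151 to 0.0528 over the 12 such fits. Nuf2 kept it in 3 of these fits, those without GV oocyte 1, GV oocyte 2 or MII oocyte 4, and lost it in the other 9 (0.0279 to 0.0693 over all 12). Spc25 kept it without GV oocyte 3, GV oocyte 6 or MII oocyte 3 and lost it in the other 9 (0.0150 to 0.0874).

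The MIS12 complex joins the inner to the outer kinetochore. Mis12 had from 52.0 to 99.5 CPM at GV (median 68.1) and from 74.4 to 97.7 CPM at MII (median 84.7), with overlap and a log2 fold change of 0.28 (adjusted p = 0.207) that became -0.45 with spike-ins. Dsn1, the subunit through which Aurora B kinase opens the complex to the inner kinetochore, had from 139 to 184 CPM at GV (median 162) and from 191 to 282 CPM at MII (median 261). All 6 MII oocytes lay above all 6 GV oocytes with TMM. The difference was 1.51-fold (log2 fold change 0.59 with standard error 0.132, adjusted p = 0.00516). Spike-ins put Dsn1 at -0.13 (standard error 0.224, adjusted p = 0.638), which does not show a decrease. Pmf1 (-0.59, adjusted p = 0.0635) and the low Nsl1 (0.01, adjusted p = 0.987, and -0.67 with spike-ins), the other subunits, missed the threshold with TMM. Spike-ins put Pmf1 at -1.37, and it was then called.

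Among corona genes, Cenpe encodes a kinesin that carries chromosomes towards the metaphase plate. It had from 164 to 276 CPM at GV (median 248) and from 281 to 401 CPM at MII (median 348). Every MII oocyte exceeded every GV oocyte, and the log2 fold change was 0.58 (standard error 0.143, adjusted p = 0.0105). With spike-ins it was -0.12 (adjusted p = 0.637). Zw10, of the complex that loads dynein and checkpoint proteins, was called lower with spike-ins (-1.18). With TMM it was lower in all 6 MII oocytes and passed the adjusted p (-0.46, adjusted p = 0.0240). That threshold was lost on leaving out GV oocyte 6 (adjusted p = 0.0506) or MII oocyte 2 (0.0533), within a range of 0.0165 to 0.0533 over the 12 fits. Over all 20 alternatives it was lost in 7, with adjusted p up to 0.354. The deposition genes missed it: Hjurp, for the chaperone of new CENP-A, had from 126 to 235 CPM at GV (median 163) and from 174 to 337 CPM at MII (median 216). Its stages overlapped, with a log2 fold change of 0.47 (adjusted p = 0.0968) that spike-ins turned to -0.25. Mis18a and Oip5, of the complex that marks the site of deposition, stood at 0.19 (-0.54 with spike-ins) and -0.88 (-1.60 with spike-ins, then called). Cenpj, a centriole gene, and Cenpv stood at 0.38 and 0.45 (-0.35 and -0.34 with spike-ins).

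Of the 12 members past the adjusted p in batch A, 6 kept it in all 12 fits that left out 1 oocyte: Cenpt, Cenpq, Cenpk, Zwint, Dsn1 and Cenpe. Their values per oocyte are drawn together. The first 4 were lower at MII with TMM, a sign that spike-ins could only keep. Dsn1 and Cenpe were higher with TMM alone.

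**Figure D2:**
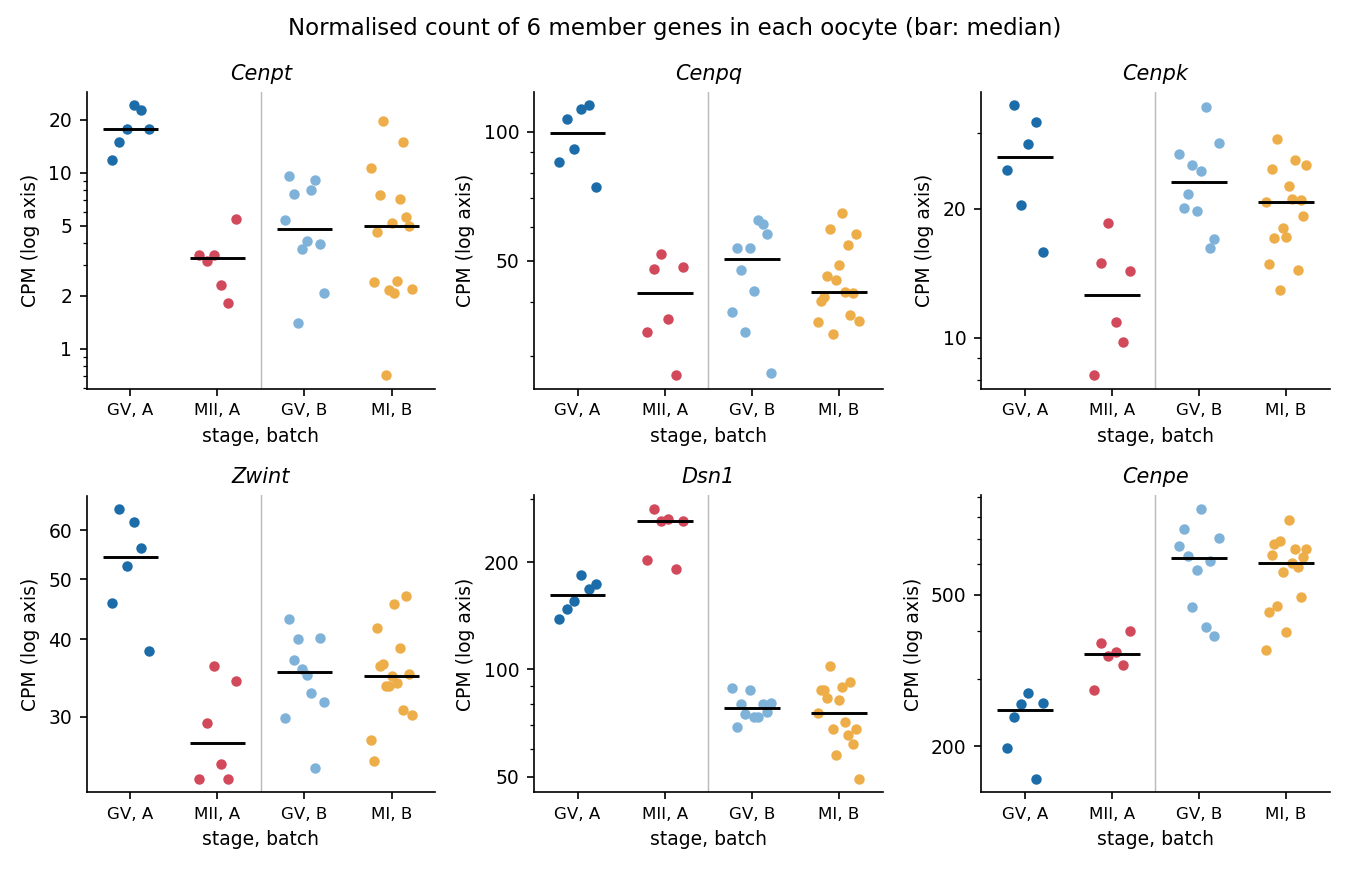
CPM of 6 members in each of the 37 oocytes (points; bars are medians), on log axes, by stage and batch. At MII Cenpt spans 1.82 to 5.42 CPM against 11.7 to 24.0 CPM at GV in batch A, Dsn1 and Cenpe lie higher at MII with TMM but not with spike-in scaling (-0.13 and -0.12 on the log2 scale), and GV and MI oocytes of batch B overlap for all 6 genes.

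The inner and outer kinetochore are described here as lists, and the difference between them was not tested. The median log2 fold change of the 14 tested inner genes was -0.27, with 6 above 0 and 8 below, and that of the 10 outer genes was 0.06, with 6 above and 4 below, beside 0.01 for all genes tested. With spike-ins these medians were -1.02 and -0.67, with every gene of both lists below 0, beside -0.72 for all genes. Each list was also summarised in each oocyte, as the median over its genes of log2(CPM + 1) less the GV mean of the batch. The inner median ran from -0.33 to 0.34 in GV oocytes (group median -0.03) and from -0.67 to 0.06 in MII oocytes (-0.17). The outer median ran from -0.12 to 0.21 at GV (0.02) and from -0.12 to 0.11 at MII (-0.06), so that by this measure the outer list was slightly lower at MII while the median of its fold changes was slightly above 0. Within an oocyte, the inner less the outer median had a group median of -0.12 at GV and -0.13 at MII. The oocytes of both stages overlapped for both lists.

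**Figure D3:**
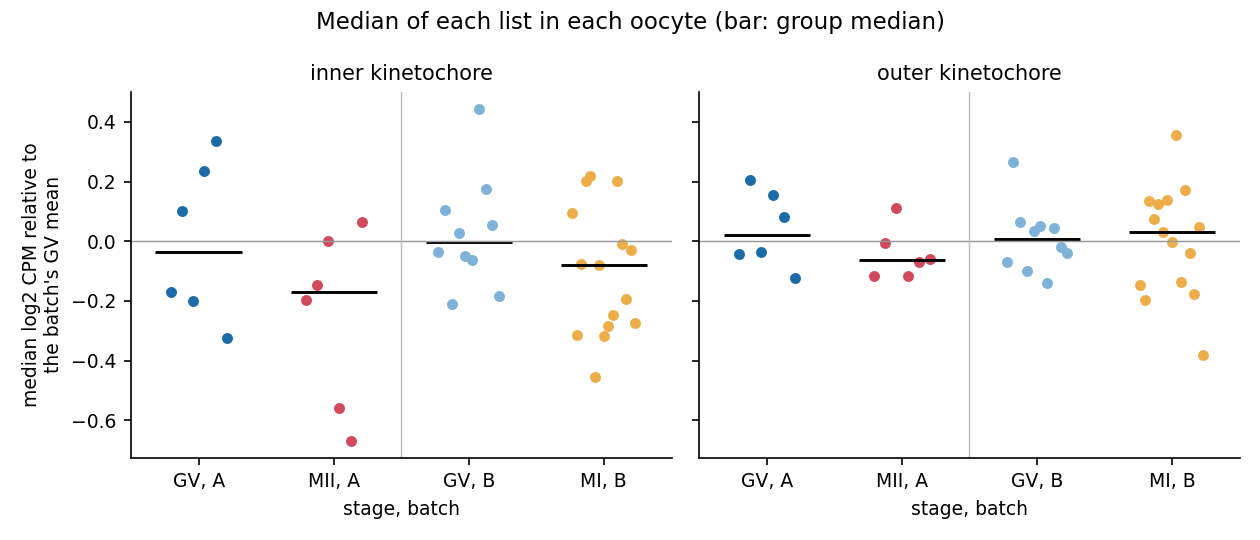
Median over the inner (left) and outer (right) kinetochore genes of log2(CPM + 1) relative to the GV mean of the batch, TMM scaled, in each oocyte (points; bars are group medians). Stages overlap in every panel, and the inner list runs from -0.67 to 0.06 at MII.

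The comparison of GV with MI oocytes asks about the first hours of maturation, up to the time when kinetochores first hold paired chromosomes on the spindle. In batch B, 12419 genes were tested and 15 were called (0.121%), 0.0886% higher and 0.0322% lower. DESeq2 called 121, HTSeq counts gave 0, and leaving out MI oocytes 4, 8 and 9 gave 36. Of the 32 members tested, 0 were called by edgeR and 0 by DESeq2, and 0 had an unadjusted p under 0.05, where 11% of all genes did (1371 genes). With the adjusted p alone the count was again 0, beside 0.145% of all genes, 0.0966% higher and 0.0483% lower. The count of 0 held on RSEM and HTSeq counts, with RLE size factors, without a low-count filter and without MI oocytes 4, 8 and 9. The oocytes of GV and MI overlapped for all 32 members, as for all genes tested. For 29 members the 95% interval of the log2 fold change lay within a fold of 2 in either direction. The exceptions were Cenpt, Nsl1 and Oip5.

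Cenpt had from 1.398 to 9.61 CPM in the GV oocytes of batch B (median 4.76) and from 0.706 to 19.6 CPM in the MI oocytes (median 5.00), a log2 fold change of 0.17 with a 95% interval of -0.66 to 1.00. The GV oocytes of batch B were thus all below the lowest GV oocyte of batch A, a difference between batches normalised apart that was not tested. Cenpq had from 27.3 to 62.3 CPM at GV (median 50.4) and from 33.8 to 64.5 CPM at MI (median 42.2). Cenpk had from 16.2 to 34.7 CPM at GV (median 23.1) and from 12.9 to 29.2 CPM at MI (median 20.7). Both genes overlapped widely, with log2 fold changes of -0.06 (95% interval -0.35 to 0.23) and -0.21 (-0.54 to 0.11).

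The histone gene, its scaffold and its chaperone overlapped between the stages of batch B. Cenpa had from 8.08 to 24.0 CPM at GV (median 13.7) and from 6.24 to 23.7 CPM at MI (median 12.4). Cenpc1 had from 4.24 to 11.0 CPM at GV (median 7.598) and from 3.84 to 19.8 CPM at MI (median 7.15). Hjurp had from 75.4 to 148 CPM at GV (median 103) and from 60.6 to 175 CPM at MI (median 102). For these genes of CENP-A chromatin, adjusted p lay from 0.716 to 0.975.

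Outer genes also overlapped between GV and MI. Ndc80 had from 24.8 to 67.1 CPM at GV (median 42.7) and from 26.7 to 69.4 CPM at MI (median 39.8). Nuf2 had from 124 to 226 CPM at GV (median 178) and from 128 to 262 CPM at MI (median 196). Spc24 had from 21.03 to 32.9 CPM at GV (median 24.4) and from 16.9 to 37.7 CPM at MI (median 24.5). In each of these the MI range held most or all of the GV range. Spc25 had from 30.3 to 63.0 CPM at GV (median 39.4) and from 24.4 to 75.7 CPM at MI (median 41.4). Mis12 had from 19.6 to 84.2 CPM at GV (median 63.4) and from 38.6 to 126 CPM at MI (median 69.96). Knl1 had from 32.0 to 68.2 CPM at GV (median 46.5) and from 29.6 to 73.9 CPM at MI (median 49.8). None of these stages were separate. The median log2 fold change was -0.05 over inner and 0.00090 over outer genes, beside 0.02 over all genes tested.

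Whether the change to MII differs from the change to MI was tested directly in a model of all 37 oocytes, with each change taken within its batch. Stage of arrival, batch and place of maturation cannot be told apart in this contrast. Of 15083 genes tested, 608 were called (4.03%), with 2.01% higher and 2.02% lower. Among the 33 members, 0 were called higher and 2 lower by edgeR and by DESeq2, and 11 had an unadjusted p under 0.05, where 17.7% of all genes did. The difference was -2.58 for Cenpt (standard error 0.640, adjusted p = 0.0106) and -1.12 for Cenpq (standard error 0.241, adjusted p = 0.00340), both on the log2 scale. For Cenpt the 6 MII oocytes lay within the range of both groups of batch B, and the GV oocytes of batch A stood above most of them. For Cenpq every GV oocyte of batch A (74.5 CPM or more) was above every oocyte of batch B (64.5 CPM or less), while the MII median of 42.1 CPM was near the batch B medians of 50.4 and 42.2 CPM. Zwint (-0.83, adjusted p = 0.0135), Dsn1 (0.71, adjusted p = 0.0145) and Cenpe (0.71, adjusted p = 0.0444) passed the adjusted p with a fold under 2, and spike-ins could not be used across batches to see whether the positive signs hold. That made 2 members higher and 3 lower by the adjusted p alone, beside 5.46% of all genes, 3.1% higher and 2.36% lower. Over 5 alternatives the adjusted p ranged up to 0.0450 for Zwint, 0.109 for Dsn1 and 0.144 for Cenpe. Cenpk did not pass (-0.73, adjusted p = 0.133), so its change to MII is not shown to differ from that to MI.

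Transcripts of the members were tested in the same way. The annotation lists 177 of them, of which 66 from 32 genes were tested in batch A. Of these, 1 was called higher and 6 lower, beside 5.57% of 22461 transcripts called, 1.35% higher and 4.23% lower (9.3% by the adjusted p alone). The lower calls were Cenpt-201 (-2.66), Cenpm-201 (-1.68), Cenpq-201 (-1.28), Cenpk-201 (-1.18), Cenpl-203 (-1.17) and Zwint-201 (-1.05), with adjusted p from 3.11e-04 to 0.0491. Leaving out MII oocyte 1 ended the calls of Cenpk-201 (-1.07, adjusted p = 0.0634) and Cenpl-203 (-1.23, adjusted p = 0.0711), which span 0.00316 to 0.113 and 0.00279 to 0.149 over their alternatives. Without a low-count filter these calls and that of Cenpm-201 (-1.70, adjusted p = 0.0590 in a range of 0.00193 to 0.0590) were lost. Cenpq-201 held a median of 99.7% of its gene's counts at GV and Cenpt-201 held 95.3%, so these are the gene results seen again. Cenpk-201 held 40.7% and Zwint-201 held 89.3%. Cenpm-201 was a minor form, with 10.5% of the gene's counts at GV and 5.43% at MII, while Cenpm-202 held 89.1% and was not called (-0.63, adjusted p = 0.237). In batch B, 0 of 69 member transcripts were called by edgeR or by DESeq2, and 1 had an unadjusted p under 0.05, beside 0 of 22717 by edgeR, where 7.11% had an unadjusted p under 0.05, and 103 by DESeq2. Of the other most abundant transcripts, Cenpa-205 (-0.01), Cenpc1-201 (0.10), Hjurp-201 (0.46), Ndc80-201 (0.04), Mis12-201 (0.26), Knl1-202 (0.06), Spc24-201 (-0.70), Spc25-201 (-0.71) and Nuf2-201 (-0.04) were not called in batch A.

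The higher call was Nuf2-202, and its gene was not called. Nuf2-202 and Nuf2-201 share a coding sequence of 1389 bases. The annotated 3′ UTR of Nuf2-202 begins with all 478 bases of that of Nuf2-201 and runs on for 377 more, to 855 bases. Nuf2-202 had from 22.7 to 30.4 CPM at GV (median 24.3) and from 56.0 to 68.8 CPM at MII (median 61.4). The stages did not overlap. The log2 fold change was 1.298 (standard error 0.1201, adjusted p = 7.26e-05), and it kept its sign at 0.61 with spike-ins (an alternative added after the data were seen), with a fold under 2 and an adjusted p of 0.0436 in a range of 4.83e-29 to 0.0436 over the alternatives. Nuf2-201 stood at -0.04 (adjusted p = 0.855). As a share of the Nuf2 counts, Nuf2-202 went from 16.7% to 21.8% in GV oocytes (median 17.5%) and from 31.8% to 40.5% in MII oocytes (median 35.5%). In batch B its share was 5.42% to 30.6% at GV (median 16.3%) and 3.15% to 29.5% at MI (median 11.9%), with full overlap and a log2 fold change of -0.23 (adjusted p = 0.998). The split between both forms is RSEM's estimate, since most of their sequence is shared.

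**Figure D4:**
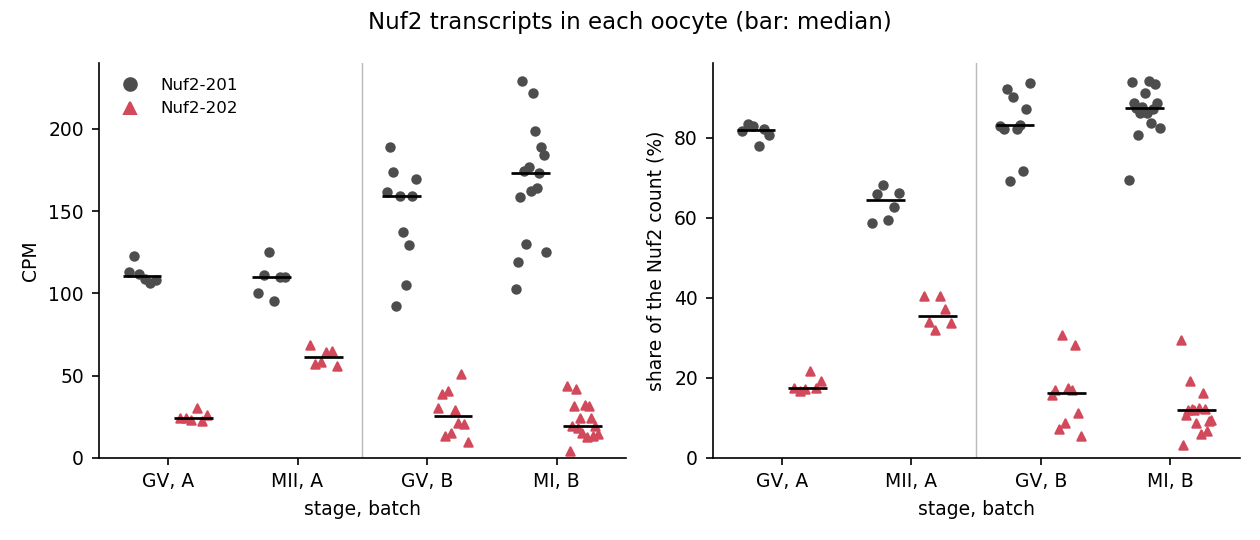
CPM (left) and share of the Nuf2 counts in percent (right) of Nuf2-201 (circles) and Nuf2-202 (triangles) in each oocyte, with bars at group medians. In batch A the share of Nuf2-202 is 16.7% to 21.8% at GV and 31.8% to 40.5% at MII, while the log2 fold change of Nuf2-201 is -0.04 with TMM.

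The annotated 3′ ends were read from GENCODE M21 transcripts (GRCm38), since the forms of Nuf2 differ there. They also start at different positions, 169531428 and 169531464 on chromosome 1. Poly(A) hexamers AATAAA or ATTAAA were searched in the last 40 bases, on the transcript's strand alone. For each gene the most abundant coding transcript of batch A with a complete annotated end was used. A hexamer was present for 28 of 33 members (23 with AATAAA and 5 with ATTAAA nearest the end, 84.8%), beside 76.4% of 11109 genes tested. The windows below are shown for both ends of Nuf2 and for the 3 called genes, with the hexamer in capitals. The window of Nuf2-201 lies at chr1:169498324-169498353 and that of Nuf2-202 at chr1:169497937-169497966, both on the minus strand, and from the hexamer to the annotated end there are 25 and 15 bases.
Nuf2-201: tgtactggttggAATAAAtagatactgaac
Nuf2-202: tattacccagctATTAAAaacaatgaattt
Cenpt-201: gaaaggaataggaATTAAAgactttatact
Cenpq-201: attatttttaaaAATAAAaaaaaaaatgcc
Cenpk-201: ttttactgtttaAATAAAgaatattgtttg
The window of Cenpt-201 lies at chr8:105844677-105844706 (minus strand), that of Cenpq-201 at chr17:40923065-40923094 (minus strand) and that of Cenpk-201 at chr13:104249580-104249609 (plus strand). The earlier end of Nuf2 thus carries AATAAA and the later end ATTAAA. A match describes the annotated sequence, and which ends the oocytes used was not measured.

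Motifs of the cytoplasmic polyadenylation element, TTTTAT or TTTTAAT, which in oocytes mark stored messages whose tails are lengthened, were searched in the last 100 bases, again on the transcript's strand. The longer of them can share bases with AATAAA. They were present for 8 of 33 members (24.2%), beside 19.8% of 11109 genes tested. Those members were Cenpe, Cenph, Cenpn, Cenpo, Cenpu, Mis18a, Ndc80 and Nuf2. The 3′ UTR of Nuf2-201 holds 2 matches to TTTTAT, and Nuf2-202, which contains that whole UTR, carries them further from its end. The match shown lies in the last 100 bases of Nuf2-201, at chr1:169498366-169498395 (minus strand), while the last 100 bases of Nuf2-202 hold none.
Nuf2-201: aacgtgtacagcTTTTATgtccctactctc
The annotated 3′ UTRs of these transcripts had a median length of 586 bases over the members and of 992 bases over the genes tested, and that of Cenpk-201, with 98 bases, was the shortest of the 33.

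Exons of several members overlap a gene on the opposite strand, and Smart-seq2 reads do not tell strands apart. Cenpk shares 233 bases with Ppwd1, Cenpq 95 bases with Mut and Cenpt 8 bases with Tsnaxip1. Ppwd1 (log2 fold change -0.25, adjusted p = 0.350) and Mut (-0.08, adjusted p = 0.853) were not called in batch A, and Tsnaxip1 was too low to test. Ippk, which shares 315 bases with Cenpp, and Nusap1, which shares 172 bases with Oip5, passed the adjusted p on the same side of 0 as those members (-0.56, adjusted p = 0.0360, and -0.55, adjusted p = 0.0428), and their part in the values of Cenpp and Oip5 was not tested. Cenpo shares 1380 bases with Adcy3 and 252 with Ptrhd1, Cenpu shares 1069 with Primpol, and Mis12 shares 231 with Derl2. Reads of each pair could be assigned to either gene. Ptrhd1 was on the same side of 0 as Cenpo (-0.67) and missed the adjusted threshold (adjusted p = 0.0653). The same held for Adcy3 beside Cenpo (-0.22, adjusted p = 0.760) and Primpol beside Cenpu (0.26, adjusted p = 0.445). It also held for Derl2 beside Mis12 (0.35, adjusted p = 0.180).

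Partner genes, a list of 32 further kinetochore genes (deposition and inner partners, the RZZ and SKA complexes, the spindle checkpoint, the chromosomal passenger complex and shugoshins, and microtubule regulators), were read from the same fits. In batch A 0 of 32 were called higher and 1 lower by edgeR and by DESeq2, beside 8.47% of all genes called. Of the 32, 14 had an unadjusted p under 0.05, where 34.3% of all genes did. That gene was Meikin, whose product holds sister kinetochores together in meiosis I. It had from 10.5 to 28.7 CPM at GV (median 16.9) and from 2.75 to 7.74 CPM at MII (median 6.84). All MII oocytes were lower, with a log2 fold change of -1.60 (adjusted p = 0.00127, standard error 0.286). The shares by the adjusted p alone were not matched for abundance. By that threshold 4 partners were higher with TMM and 5 were lower (28.1% of the 32), beside 9.06% and 11.5% of all genes (20.6% in either direction). Of those 4, spike-ins kept Clasp2 above 0 (0.06) and turned Bub1b, Aurkc and Sgo2a below it, at adjusted p from 0.511 to 0.826. Leaving out MII oocyte 3 made the called partners 3, with Cenpx, an inner kinetochore gene, and Itgb3bp added to Meikin. Leaving out GV oocyte 2, GV oocyte 6 or MII oocyte 6 made them 2, each time with Cenpx added.

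Between GV and MI, 0 of 32 partners were called by edgeR or by DESeq2, with 2 at an unadjusted p under 0.05, beside 0.121% of all genes called by edgeR and 11% at that p. The difference between both changes was called for Aurkc, an Aurora kinase gene (1.24, standard error 0.260, adjusted p = 0.00268). It had from 170 to 241 CPM at GV and from 235 to 380 CPM at MII in batch A (medians 199 and 298), and from 31.9 to 95.5 CPM at GV and from 20.8 to 61.4 CPM at MI in batch B (medians 56.5 and 36.8). Both pairs of stages overlapped, and with spike-ins the change in batch A was -0.18 (adjusted p = 0.511). For Meikin the difference was -1.56 and missed the threshold in edgeR (adjusted p = 0.0756), while DESeq2 called it.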

How the data were processed

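Single oocytes were sequenced by Smart-seq2. The submitters' processing notes name Trim Galore 0.6.4, STAR 2.7.6a, HTSeq 0.12.4 and RSEM 1.3.1 with mm10, and the paper names GENCODE VM20 and added ERCC sequences. The authors deposited expected counts from RSEM for genes and for transcripts, and counts from HTSeq for genes, none of them normalised; whether HTSeq used strand is not given in the sources used here. Symbols were matched through GENCODE M21, which held 54723 of 54844 gene identifiers (92 others are spike-ins).

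Expected counts were rounded, spike-ins left out, low features removed with filterByExpr, and libraries scaled by TMM. Tests used edgeR 4.0.16 (limma 3.58.1) in R 4.3.3, with Benjamini-Hochberg adjustment over all features tested, a threshold of 0.05 and a fold over 2. The fit on oocytes of batch A, that on batch B, and a model of all 37 oocytes for the difference between both changes were used, each oocyte being a replicate. TPM was computed from transcript counts and annotated lengths. Intervals are at 95% and cover the spread between oocytes. Without molecular identifiers, reads are not independent molecules.

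Depth ran from 2709247 to 19390137 counts. Alternatives were DESeq2 1.42.0, RLE and spike-in size factors, no filter beyond 1 count, HTSeq counts, the adjusted p alone, the replicate number as a block, a model of all oocytes, and leaving out oocytes. The members and lists were chosen with earlier results of these data known. Members could all be named; values in full are given for those called and, called or not, for Cenpa, Cenpc1, Cenpt, Hjurp, Ndc80, Nuf2, Spc24, Spc25, Mis12 and Knl1. Partners and member transcripts are named where called, as is the most abundant transcript of each gene given in full. Zwint, Dsn1, Cenpe and the others past the adjusted p alone were picked after their values were seen.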

Additional observations from a re-analysis of the deposited data

Results flagged for a closer look

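Within groups of 6 or 10 oocytes, 114 sets of values were examined for a single oocyte far from the rest, and 8 (7.02%) held one. The limit used gives about 1 in 20 by chance for normally distributed values, which CPM need not be. All 8 were on the high side. GV oocyte 7 of batch B was high for Mis18a (102.7 CPM, next 53.5) and for Nsl1 (11.3 CPM, next 6.82). Others of batch B were GV oocyte 3 for Hjurp (148.2 CPM, next 109), GV oocyte 9 for Oip5 (5.59 CPM, next 2.71), GV oocyte 4 for Cenph (29.9 CPM, next 22.7) and GV oocyte 2 for the outer kinetochore median (0.27, next 0.06). MII oocyte 1 of batch A was high for genes detected (29816, next 22598) and for Cenpb (0.725 CPM on 7 counts, next 0.173).

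The change to MII differed from the change to MI, by a test of that difference on the log2 scale, for 7 members or partners at an adjusted p under 0.05, which 5.46% of all genes passed, and batch and place of maturation cannot be told apart from stage there. The difference was -2.58 for Cenpt, -1.12 for Cenpq, -0.83 for Zwint, 0.71 for Dsn1 and 0.71 for Cenpe among members. Among partners it was 1.24 for Aurkc and -0.76 for Ska1, which helps kinetochores to hold shrinking microtubules. With a fold over 2 as well, Cenpt, Cenpq and Aurkc were called. Dsn1 and Cenpe missed the adjusted threshold in some alternatives (adjusted p up to 0.109 and 0.144). No spike-in check of these signs exists across batches.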

How the results depend on the processing

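In batch A the count of 3 called members was 13 with spike-in size factors and 12 with the adjusted p alone. Spike-ins raised the calls over all genes as well, and 20.6% of all genes passed the adjusted p alone. The members' count ranged from 2 to 3 on leaving out single oocytes. It was 4 without a filter (Cenpb added) and 3 on HTSeq counts (Cenpi called higher, Cenpk not called). The model of all 37 oocytes called 2. With spike-ins the inner and outer medians were -1.02 and -0.67. The signs of Nuf2 (-0.41), Dsn1 (-0.13), Cenpu (-0.21), Cenpe (-0.12), Dsn1-201 (-0.16) and Cenpe-201 (-0.12) reversed. For the 4 genes the adjusted p with spike-ins lay from 0.139 to 0.638, which does not show a decrease. This scaling assumes equal spike-in input per oocyte, and the cause of the shift was not tested.

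Called member transcripts (7) were 4 without a filter, 17 with spike-ins (added after the data were seen), 8 with DESeq2 and 5 without MII oocyte 1. At the main setting 5.57% of all transcripts tested were called. Shares over all transcripts are not given for the other settings, so these counts show nothing particular to the members. Called partners (1) were 6 with spike-ins and from 1 to 3 on leaving out single oocytes. For the difference between both changes, DESeq2 called 2 partners (Aurkc and Meikin) in place of 1, with the members' count 2 under every setting. In batch B the members' count was 0 under every setting. Cenpt spanned -3.20 to -2.35 and Cenpq -2.002 to -1.15 over 20 alternatives. Members past the adjusted p alone lost it in 14 (Spc25, adjusted p up to 0.297), 12 (Cenpo, 0.275), 7 (Zw10, 0.354) and 3 (Spc24, 0.0639) of these. Nuf2 and Cenpu lost it in 14 and 11 beside their reversal. The cause of these differences was not tested.

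The replicate number as a block gave 3 called members in batch A and 0 in batch B. Same-number correlations of whole profiles ran from -0.39 to 0.355 in batch A and from -0.199 to 0.136 in batch B. Of the oocytes, 1 of 6 and 0 of 10 correlated best with their own number. No pairing by number was seen, which does not show that same-number oocytes are unrelated. HTSeq fits without MII oocyte 1 or without MI oocytes 4, 8 and 9 were added after the data were seen and called 3 and 0 members. Cenpb missed the low-count filter in both batches.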
